A study of Mus musculus with 6 samples.

Results

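Mixl1, Gsc, Foxa2, Evx1, Cer1 and Sp5 are regulators of the primitive streak and of the anterior mesendoderm and endoderm that leave it. They were taken by symbol from a table of 14005 genes, and 5 of the 6 had a row. Foxa2, a forkhead factor of definitive endoderm and axial mesoderm (Ensembl ENSMUSG00000037025), has no row under its symbol or identifier in the table used here. Its level was not analysed here, and only its promoter sequence was read. The primitive streak is the site where epiblast cells leave the epithelium during gastrulation and become mesoderm and endoderm. WNT and NODAL signals switch on the regulators of the streak, and their levels decline as mesodermal cells take on blood, vascular, cardiac or paraxial fates. Mixl1, Gsc and Evx1 encode homeodomain transcription factors, Sp5 encodes a zinc finger factor that WNT signalling induces directly, and Cer1 encodes a secreted antagonist of NODAL and BMP ligands.

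The libraries came from FLK1+ cells collected on magnetic columns from day 3.5 embryoid bodies (EBs), which are aggregates of differentiating mouse embryonic stem (ES) cells. The compared groups were WT cells of the J1 ES cell line and Scl-/- ES cells, in which Scl (Tal1), the master regulator of blood specification, is inactivated. Each group held 3 libraries numbered 1 to 3, and the comparison asks what happens to the streak programme when SCL is missing. The labels give the strain as C57Bl/6 X Sv129 for 3 of the 6 libraries, and the others carry Sv130, Sv131 and Sv132 in its place. Each genotype is 1 cell line, so that genotype and line cannot be told apart, and the p-values measure the spread between differentiations of these lines.

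Levels are given in CPM, the reads of a gene scaled to library size. Libraries held 38623641 to 47621120 reads on the listed genes, and a floor of 3 reads corresponded to 0.0615 to 0.0784 CPM. Of the 14005 genes, 13991 reached 0.5 CPM in at least 3 libraries and were tested with limma on log2(CPM + 0.5), a scale that understates the change of low genes. A gene was called at a Benjamini-Hochberg adjusted p under 0.05 with an absolute log2 fold change above 0.48. Fold changes set Scl-/- cells against WT cells. Same-numbered libraries deviated together from their group means, so a fit with the replicate number as a block is given where it changes a call. No label says that a number marks a shared differentiation, so calls made with the block only depend on this pairing. The targeted gene Tal1 had 182 to 306 CPM in WT and 5.68 to 9.35 CPM in Scl-/- libraries. Kdr, which encodes FLK1, had 832 to 868 CPM in WT and 724 to 810 CPM in Scl-/- libraries and was not called with or without the block. Of the 8 markers fixed for FLK1+ mesoderm all had a row, and among them Etv2 rose, and Tal1 and Gata2 fell, with or without the block. Mesp1 (log2 fold change 1.40) and Pdgfra (0.88) rose with the block only. The study also gives Tal1, Gata2, Etv2 and Mesp1 as SCL-bound genes with a changed level in these libraries, so their direction is not independent evidence. With each library left out in turn and no block, 1 to 5 of the 8 markers were called.

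All 5 measured streak regulators had a higher level in the Scl-/- library of each of the 3 same-numbered pairs. Mixl1 and Evx1 rose, whether or not the block was used. Gsc and Sp5 were called with the block only, and Cer1 was not called in either fit. The smallest log2 fold change was 0.75 for Evx1 and the largest 1.59 for Sp5. Their median was 1.04, against 0.009 over all tested genes. Of all 13991 tested genes, 0.793% were called as higher and 1.57% as lower in Scl-/- cells without the block, 6.04% were called as higher with it, and 29.8% were higher in each of the 3 pairs. At any fold, 24.2% of the tested genes and 4 of these 5 regulators had an adjusted p under 0.05 with the block. Mixl1, Gsc, Cer1 and Sp5 are also on the study's own list of SCL-bound genes with a changed level, which was drawn up on these same libraries, so their direction is not independent evidence. In bulk RNA, more cells of a type and more RNA per cell cannot be told apart.

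**Figure D1:**
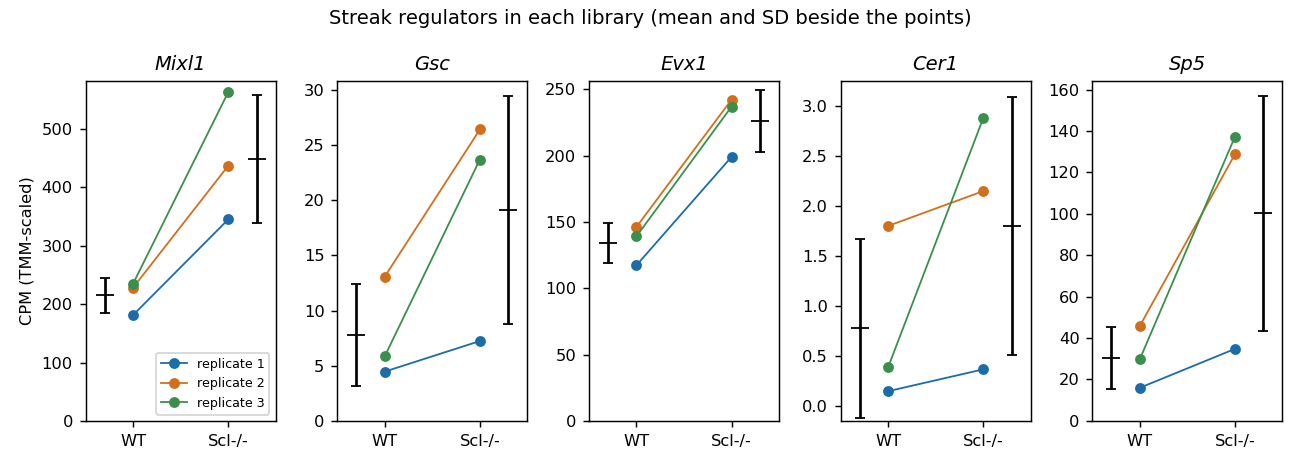
CPM of the 5 measured streak regulators in the WT and Scl-/- libraries, with a separate linear axis in each panel. Lines join same-numbered libraries, and the black marks beside the points give the mean and SD of 3 libraries. Each line runs upwards from WT to Scl-/-, and the groups are separated for Mixl1 and Evx1 but overlap for Gsc, Cer1 and Sp5.

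Mixl1, a paired-type homeodomain factor needed for the formation of axial mesoderm and definitive endoderm, had the highest level of these genes per kb of exon. It lies on the minus strand of chromosome 1 from 182623174 to 182627165 of mm9 (ENSMUSG00000026497). In replicate order, it was measured at 181, 228 and 235 CPM in the WT libraries and at 345, 437 and 563 CPM in the Scl-/- libraries. The lowest Scl-/- library lay above the highest WT library, and replicate 1 was the lowest of both groups. Mixl1 rose from 215 ± 29.2 CPM (SD, n = 3) to 448 ± 109 CPM (SD, n = 3), a log2 fold change of 1.04 ± 0.19 (SE). The adjusted p from limma was 0.0378, and 0.000141 under the block. Without the block this call was lost when WT replicate 1, 2 or 3 or Scl-/- replicate 2 or 3 was left out, with adjusted p-values up to 0.183 from limma. With the block it held without each pair in turn.

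Mixl1 went against the drift of its chromosome. Over the 789 tested genes of chromosome 1, the median was -0.29 on the log2 scale, while the chromosomes that hold the other measured regulators had medians between -0.016 and 0.006. After the median deviation of each chromosome had been removed from each library, the log2 fold change of Mixl1 with the block was 1.33 (limma, adjusted p = 2.36e-05), and those of Gsc, Evx1, Cer1 and Sp5 were 1.20, 0.74, 0.85 and 1.59. The nearest tested gene to Mixl1 is Lin9, 2.4 kb away, with 41.3 CPM on average in WT and 32.5 CPM in Scl-/- libraries and a log2 fold change of -0.34. Lin9 encodes a subunit of a cell cycle complex and was not called in either fit. Parp1, which encodes the DNA repair enzyme poly(ADP-ribose) polymerase, lies 91.8 kb away and fell with the block only, with a log2 fold change of -0.56 (limma, adjusted p = 0.00165).

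Evx1, a homeodomain factor of the posterior streak, had the most even response. It lies on the plus strand of chromosome 6 from 52263492 to 52268372 of mm9 (ENSMUSG00000005503), beyond the 5′ end of the HoxA cluster. Its level was 117, 146 and 139 CPM in the WT libraries and 199, 242 and 237 CPM in the Scl-/- libraries, in replicate order. The groups did not overlap, and the highest and lowest library of a group differed by a factor of 1.25 in WT and 1.22 in Scl-/- cells. Evx1 rose from 134 ± 15.1 CPM (SD, n = 3) to 226 ± 23.6 CPM (SD, n = 3), a log2 fold change of 0.75 ± 0.12 (SE). The adjusted p from limma was 0.0271, and 0.000141 under the block. The differences within the pairs were 0.76, 0.73 and 0.77 on the log2 scale. Leaving out WT replicate 1 or 3 or Scl-/- replicate 2 or 3 ended the call made without the block, with adjusted p-values from limma of up to 0.142, and the call with the block held without each pair.

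Non-overlapping groups with Scl-/- above WT were seen for 11.0% of all tested genes. Mixl1 and Evx1 had such groups, and the other 3 measured regulators did not.

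Sp5 had the largest fold change of these regulators. It lies on the plus strand of chromosome 2 from 70312980 to 70315786 of mm9 (ENSMUSG00000075304). Its level was 16.0, 45.8 and 29.7 CPM in the WT libraries and 34.8, 129 and 137 CPM in the Scl-/- libraries, in replicate order. WT replicate 2 lay above Scl-/- replicate 1, and the lowest value of each group came from replicate 1. Mean levels were 30.5 ± 14.9 CPM in WT and 100.2 ± 56.8 CPM in Scl-/- cells (SD, n = 3 each). The log2 fold change of 1.59 ± 0.57 (SE) did not pass without the block (limma, adjusted p = 0.21) and was called with it (adjusted p = 0.000775). Without the block, the estimate ran from 1.20 without WT replicate 1 (limma, adjusted p = 0.595) to 2.23 without Scl-/- replicate 1, where it was called (adjusted p = 0.0488). With the block, Sp5 was called without each pair in turn, with estimates from 1.29 without pair 3 to 1.83 without pair 1. The pairs differed by 1.10, 1.48 and 2.19 on the log2 scale.

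Gsc encodes Goosecoid, a paired-type homeodomain factor of the anterior streak and the organizer. It lies on the minus strand of chromosome 12 from 105709419 to 105711537 of mm9 (ENSMUSG00000021095). In replicate order, the WT libraries held 4.47, 13.1 and 5.85 CPM and the Scl-/- libraries 7.24, 26.4 and 23.7 CPM. As for Sp5, WT replicate 2 lay above Scl-/- replicate 1. The means were 7.79 ± 4.62 CPM (SD, n = 3) and 19.1 ± 10.4 CPM (SD, n = 3), and the log2 fold change of 1.19 ± 0.54 (SE) was called with the block only (limma, adjusted p = 0.319 without and 0.00739 with it). Without the pair of replicate 3, the log2 fold change with the block was 0.81 (limma, adjusted p = 0.0221). Without that of replicate 2 it was 1.28, with an adjusted p of 0.0473, close to the threshold. Without that of replicate 1 it was 1.46 (adjusted p = 0.000178).

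Cer1 was close to the lower limit of measurement. It lies on the minus strand of chromosome 4 from 82527655 to 82531052 of mm9 (ENSMUSG00000038192). In replicate order, the WT libraries held 6, 69 and 16 reads of it, or 0.151, 1.80 and 0.389 CPM. The Scl-/- libraries held 18, 89 and 127 reads, or 0.369, 2.15 and 2.88 CPM. The exact Poisson 95% intervals, which cover counting error only, were 0.222 to 0.631 CPM for WT replicate 3 and 0.219 to 0.583 CPM for Scl-/- replicate 1, and so overlapped. It passed the filter through WT replicate 2 and Scl-/- replicates 2 and 3. The log2 fold change was 0.85 ± 0.63 (SE), with an adjusted p from limma of 0.572, and of 0.0962 under the block. It was 1.25 with a pseudocount of 0.1 and 0.63 with a pseudocount of 1. With the block, the estimate rested largely on pair 3, without which it was 0.31 (limma, adjusted p = 0.402). Without pair 2 it was 1.17 (adjusted p = 0.115), and without pair 1 it was 1.07 and called (adjusted p = 0.0398).

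**Figure D2:**
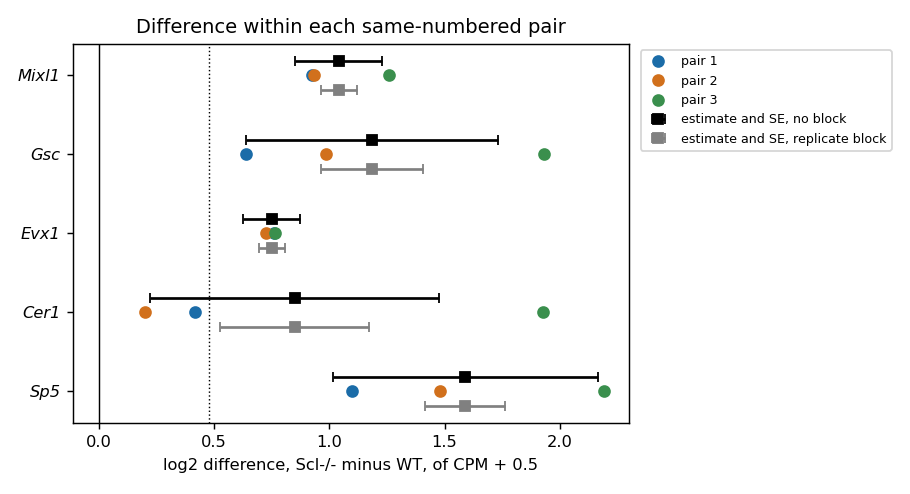
Log2 differences of CPM + 0.5 between the Scl-/- and WT library of each same-numbered pair (coloured points), with the limma estimate and its standard error without (black) and with (grey) the replicate block. The dotted line marks the threshold of 0.48. The 3 pairs of Evx1 lie between 0.73 and 0.77, while those of Sp5 run from 1.10 to 2.19 and those of Cer1 from 0.20 to 1.93.

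The measured regulators varied between libraries in 2 ways. The highest and lowest library of a group differed by factors of at most 1.63 for Mixl1 and 1.25 for Evx1, and by factors of 2.93 and 3.65 for Gsc, 2.87 and 3.95 for Sp5, and 12 and 7.81 for Cer1 in WT and Scl-/- cells. Over the 6 libraries, the root mean square difference between centred log2 profiles was 0.21 between Mixl1 and Evx1 and 0.25 between Gsc and Cer1, against 0.77 between Evx1 and Sp5. These distances describe 6 libraries from the same differentiations, and no test was made of them.

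Compared per kb of exon, the order of the levels was Mixl1, Evx1, Sp5, Gsc, Cer1 in each of the 6 libraries. The WT levels were 93.6 ± 12.7, 46.7 ± 5.24, 14.5 ± 7.10, 6.16 ± 3.65 and 0.449 ± 0.514 CPM per kb (SD, n = 3). The Scl-/- levels were 195 ± 47.7, 78.6 ± 8.19, 47.7 ± 27.1, 15.1 ± 8.20 and 1.04 ± 0.743 CPM per kb (SD, n = 3). Across libraries, the ranges of Sp5 and Gsc overlapped in both groups, with 7.61 to 21.8 and 3.53 to 10.3 CPM per kb in WT cells, and those of the other neighbours in this order did not.

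Promoter sequences were read for the regulators because 4 of them were called together with the block. RefSeq windows (GRCm38.p6) were found for 5 of the 6 genes, namely Gsc, Foxa2 (3 windows), Evx1, Cer1 and Sp5. The 250 bases before each start were searched on both strands for 5 motifs. These were TCAAAG, the core of LEF/TCF sites that carry WNT responses, AATNNACA of the NODAL effector FOXH1, the E-boxes CAGATG and CAGCTG of basic helix-loop-helix factors such as SCL, and the palindromic dimer site P3 of paired-type homeodomains, in which TAAT and ATTA stand 3 bases apart. No 2 matches overlapped. Of 32851 such windows, 13.8%, 10.9%, 14.4%, 13.0% and 0.463% held at least 1 match, in that order. Sp5 had 2 matches to TCAAAG, 204 and 104 bases before the start, both as the reverse complement CTTTGA. Gsc had 1 match to CAGATG, 210 bases before the start, as CATCTG. The windows of Foxa2, Evx1 and Cer1 held none of the 5 motifs. The windows of Sp5 (chr2:70474673-70474922, plus strand) and Gsc (chr12:104473237-104473486, minus strand) are shown 5′ to 3′ because they held the matches, with the matched bases in capitals. A match describes the letters of a window and is not a bound site.
Sp5: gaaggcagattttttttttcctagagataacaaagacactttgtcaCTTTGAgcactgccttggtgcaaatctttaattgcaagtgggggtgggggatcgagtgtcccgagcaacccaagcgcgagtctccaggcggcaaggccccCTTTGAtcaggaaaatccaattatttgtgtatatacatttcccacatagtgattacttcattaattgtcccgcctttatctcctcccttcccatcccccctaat
Gsc: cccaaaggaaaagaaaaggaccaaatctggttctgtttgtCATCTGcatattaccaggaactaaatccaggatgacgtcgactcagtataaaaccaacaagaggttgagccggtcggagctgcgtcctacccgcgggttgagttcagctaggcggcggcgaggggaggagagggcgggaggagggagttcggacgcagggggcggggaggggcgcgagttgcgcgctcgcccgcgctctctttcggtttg

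The genes around the regulators moved in both directions or were not called. Of the 30 tested genes that are the nearest 3 on each side of the 5 measured regulators, taken by position, 0 were called by limma without the block, although unadjusted p-values under 0.05 were reached by 10, and the block gave 9 calls, against 12.6% of all tested genes. Their median was -0.12 on the log2 scale, and the highest value was 0.95. Around Evx1, Gm15051 (-1.32) and Jazf1 (-1.26) fell with the block, and Hoxa13, 52.6 kb away, had a log2 fold change of -0.47 and was not called. Next to Sp5, 1500002O10Rik had a log2 fold change of 0.59 and was not called, and Gad1 rose with the block only (0.95). The nearest tested genes to Gsc, Dicer1 and Ppp4r4, had log2 fold changes of 0.01 and 0.26. The nearest tested gene to Cer1, Frem1, 12.8 kb away, had a log2 fold change of -0.08 and was not called. Further from Cer1, Zdhhc21 (21.8 kb) and Nfib (176 kb) were called as lower with the block (-0.64 and -0.75). Ttc39b, 335.2 kb from Cer1, was called as higher with the block (0.70).

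**Figure D3:**
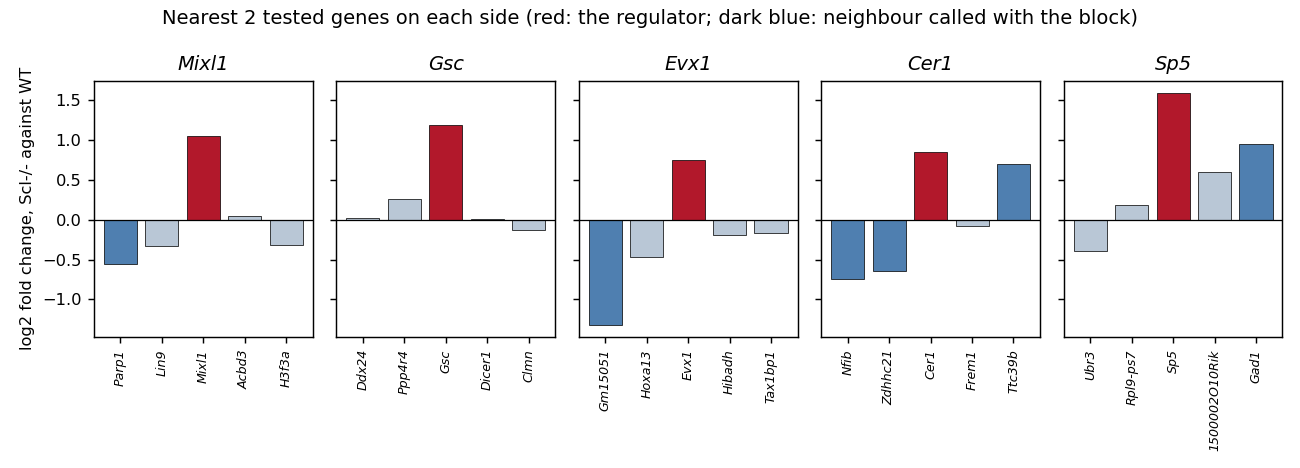
Log2 fold change, Scl-/- against WT, of each measured regulator (red) and of the nearest 2 tested genes on each side in chromosome order, with neighbours called with the replicate block in dark blue and uncalled ones in light blue. Apart from Gad1 at 0.95, the neighbours lie at or below 0.70, and those of Mixl1 and Evx1 are all below 0.05.

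Most other genes of the streak rose as well when the block was used. A list of 18 held 17 tested genes, and Wnt3a had no row. By limma without the block 0 of them were called, although unadjusted p-values under 0.05 were reached by 8. With the block 12 rose and 2 fell, against 6.04% and 6.60% of all tested genes, and the median log2 fold change was 0.90. The list was chosen with earlier results of these data known, so its counts are not independent evidence. Of this list, Mesp1, T, Tbx6 and Wnt3 were also picked in the study as SCL-bound genes with a changed level in these libraries, so their direction is not independent evidence. The same holds for Frzb, Otx2, Cxcr4, Sox17, Trh, Gata4, Gata6, Nanog, Dppa4, Esrrb, Axin2, Lgr5, Lef1, Apcdd1, Acvr2a, Gdf1 and Smad7 of the lists that follow. The largest rises were those of Lhx1 (2.15), a LIM homeodomain factor of the anterior streak, Tdgf1 (1.42), which encodes the NODAL co-receptor Cripto, and Mesp1 (1.40), a factor of cardiac mesoderm. Lhx1 lies on chromosome 11, and its log2 fold change was 1.85 with the block after removal of the chromosome medians. T, which encodes Brachyury, had a log2 fold change of 0.74. The genes that fell were Nkx1-2 (-1.34) and Cdx2 (-0.60), both expressed in the posterior, caudal part of the embryo.

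Endoderm genes did not all move one way. Of 19 definitive endoderm and axial mesendoderm genes 12 were tested, and those without a row, like Foxa2, included Foxa1, Foxa3, Hnf4a, Chrd, Shh and Noto. Without the block only Hhex was called, at 71.0 ± 15.5 CPM in WT and 22.2 ± 3.93 CPM in Scl-/- cells (SD, n = 3 each, limma's adjusted p = 0.0102). Hhex lost this call without WT replicate 1. With the block 6 rose, among them Frzb (1.55), Otx2 (1.23), Cxcr4 (1.00) and Epcam (0.72), and 3 fell, namely Sox17 (-2.10), Hhex (-1.64) and Trh (-1.03). Sox17 and Cxcr4 lie on chromosome 1 and had values of -1.81 and 1.29 with the block after removal of the chromosome medians. Sox17 and Hhex are also expressed in blood vessel or blood progenitors. Of 9 visceral endoderm markers, 8, including Ttr, Afp and Apoa1, had no row, and Rbp4 had 2.26 to 3.40 CPM in WT and 2.38 to 5.53 CPM in Scl-/- libraries and was not called.

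Markers of the epiblast and of pluripotency moved in both directions. By limma without the block 0 of the 11 tested were called, although unadjusted p-values under 0.05 were reached by 2. With the block Nanog (0.82), Pou5f1 (0.56) and Fgf5 (1.21) rose, and Dppa4 (-1.19) and Esrrb (-0.91) fell. Without the pair of replicate 2 only 1 of these calls was made, and without that of replicate 3 only 2. The summed level of the list was 366 to 477 CPM in WT and 369 to 564 CPM in Scl-/- libraries. Their part in the changes of the streak regulators was not tested. PDGFRα marks mesoderm with paraxial and cardiac potential, and its gene Pdgfra rose with the block only, with a log2 fold change of 0.88.

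Of the signals that drive the streak, WNT feedback and target genes were split. All 14 were tested. Without the block Axin2, a feedback inhibitor, rose (1.18, limma's adjusted p = 0.0033) and Lgr5, an R-spondin receptor, fell (-3.10, adjusted p = 0.0106). With the block 5 rose, among them Nkd2 (0.78), Sp8 (0.69) and Lef1 (0.59), and 2 fell, Lgr5 and the inhibitor Apcdd1 (-0.78). Axin2 lies on chromosome 11, where the median log2 fold change of 1211 tested genes was 0.31, and it had a log2 fold change of 0.88 after removal of the chromosome medians. Counts without the block ran from 1, without WT replicate 1, to 4, without Scl-/- replicate 1.

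By limma without the block 0 of the 16 tested NODAL pathway genes were called, although unadjusted p-values under 0.05 were reached by 5. With the block Lefty2, a NODAL antagonist and target (2.73), Tdgf1 (1.42), the ligand Gdf1 (0.75) and the receptor Acvr2a (0.52) rose and the inhibitor Smad7 fell (-0.51). Lefty2 lies on chromosome 1 and had a value of 3.02 with the block after removal of the chromosome medians. Nodal itself had 1.77 to 6.87 CPM in WT and 2.85 to 7.78 CPM in Scl-/- libraries and was not called. The median of the list was 0.04.

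Cer1 belongs to the secreted antagonists, of which 9 others were tested. Without the block 1 was called, as lower, and this call was lost without WT replicate 1. With the block Lefty2, Frzb and Fst rose, with Fst, an inhibitor of activin, at 1.17, and 2 fell, among them Sost (-1.11). Sost lies on chromosome 11 and had a value of -1.42 with the block after removal of the chromosome medians. Of the paralogs of the regulators 7 were tested, 0 were called by limma without the block although an unadjusted p under 0.05 was reached by 1. With the block only Sp8 rose, and the other Sp genes, which include the widely expressed Sp1 and Sp3 at 0.02 and -0.08, were not called. Gsc2, Foxa1, Foxa3, Evx2 and Sp7 had no row.

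**Figure D4:**
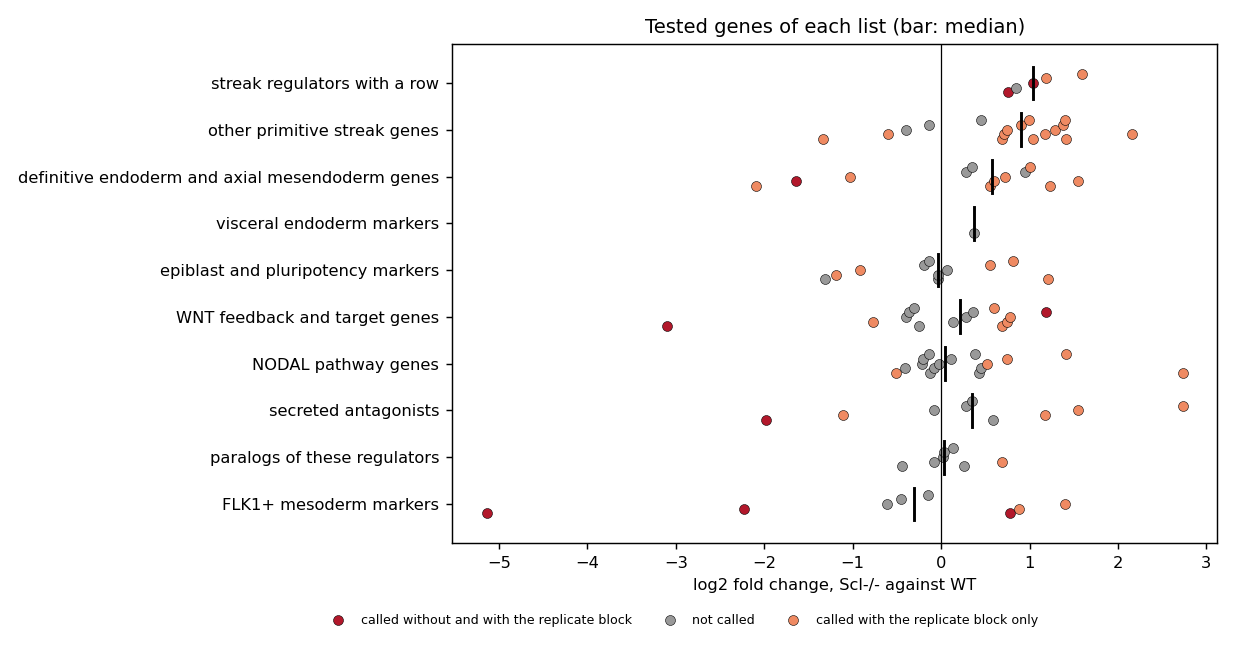
Log2 fold change, Scl-/- against WT, of each tested gene of the lists, with bars at the medians. Colours mark genes called without and with the replicate block, with it only, or not called, and a gene may be on 2 lists. The 5 measured streak regulators lie to the right of 0, with a median of 1.04, and of the other streak genes 12 were called as higher and 2 as lower with the block.

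Genes with the most similar pattern were taken as those with the smallest root mean square difference between centred log2 profiles over the 6 libraries, among 13953 other genes whose mean reached 1 CPM. For Mixl1 these were Dusp6 (0.067), Exoc3l (0.11) and Fam151a (0.11), against a spread of Mixl1 about its own mean of 0.57. Dusp6, which encodes a phosphatase that acts on ERK and is induced by FGF signalling, had 58.6, 72.2 and 69.6 CPM in the WT libraries and 99.3, 140 and 184 CPM in the Scl-/- libraries. For Evx1 the nearest were B230217C12Rik (0.059 and 0.067 for 2 identifiers that share the symbol) and Prob1 (0.061), which had 1.05 to 2.61 CPM. For Gsc they were Gfra3 (0.14), Chst7 (0.16) and Lrig3 (0.16). For Cer1 they included Gfra3 (0.24) and Gsc (0.25). For Sp5 they were Pim2 (0.17), Frzb (0.20), a secreted WNT inhibitor, and Mesp1 (0.22). A list picked for its likeness to a regulator is a description of these 6 libraries.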

How the data were processed

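RNA-seq of 6 libraries, 3 WT and 3 Scl-/-, was used. The authors aligned reads to mm9 with TopHat2 2.0.8b, removed duplicate read pairs, filtered on mapping quality with SAMtools 0.1.19 and scaled by TMM in edgeR. CPM values per gene and library were deposited. The counting tool and gene annotation are not given in the sources used here. Duplicate removal can limit the values of short or highly expressed genes. Every value was a whole multiple of 1 step per library (within 0.01 reads), which gave the reads per gene. The columns hold 19 to 82 values of up to 20 reads. The deposited values are CPM, so a linear model on a log scale was used, and no count model was run.

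The filter was 0.5 CPM in 3 libraries or more. Condition was fitted alone to log2(CPM + 0.5) by lmFit and trended eBayes (limma 3.58.1, R 4.3.3), and together with the replicate number as a block. The numbers were taken as pairs because the study describes 3 independent differentiations and deviations from the group means correlated across genes at 0.59, 0.76 and 0.75 for same-numbered libraries, against -0.62 to -0.10 for others. Deviations of the 3 libraries of a group sum to 0 for each gene, so the negative values for others are not separate evidence. No label says that a number marks a shared differentiation, and the pairing was judged on the same data that the block was fitted to. The fit was also run on simulated reads, in which replicate effects were absent or drawn separately for each gene. Shifts of whole chromosomes were not simulated, so that run does not cover them. Positions and exon lengths are from GENCODE for mm9, which held all 14005 identifiers. Other steps used Python 3.11.15, NumPy 2.4.6, SciPy 1.17.1, pandas 2.3.3 and Matplotlib 3.10.9. The genes and lists were chosen with earlier results of these data known. Besides the regulators, Tal1 and Kdr, the genes named are up to 4 called genes of a list, defining markers, neighbours by position and the 3 nearest patterns. Others (T, Nodal, Sp1, Sp3, Hoxa13, uncalled neighbours) were chosen after their values were seen. Some genes under these rules are not reported here. Alternatives were leaving out each library, the block, removal of chromosome medians, median-ratio rescaling, untrended variances, pseudocounts of 0.1 and 1, other fold thresholds, and either no filter or a minimum mean of 2 CPM. The block without each pair or with other pseudocounts was added after seeing the data.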

Additional observations from a re-analysis of the deposited data

How the results depend on the processing

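All 5 regulators kept a higher level in Scl-/- cells under each alternative run (21 each, 20 for Cer1, which a minimum mean of 2 CPM removes). Many of these runs could not have reversed a direction. The block, the filters, untrended variances and fold thresholds leave the estimate as it is. As each pair was already higher, other pseudocounts or the block without a pair could not turn it either. Values in this paragraph are counts of called genes, and lists are named in the order all genes, streak regulators, other streak genes, endoderm, epiblast, WNT, NODAL, antagonists, paralogs and FLK1+ mesoderm. They were 330, 2, 0, 1, 0, 2, 0, 1, 0 and 3 without the block. With the replicate block they were 1768, 4, 14, 9, 5, 7, 5, 5, 1 and 5, and so also for the lists with the block and a pseudocount of 0.1 (1822 genes) or 1 (1669 genes). With chromosome medians removed and the block they were 1492, 4, 14, 9, 5, 7, 5, 5, 2 and 6. The replicate block without replicate 1 gave 2062, 5, 15, 10, 5, 7, 7, 6, 2 and 7, without replicate 2 1122, 4, 12, 6, 1, 5, 4, 4, 0 and 5, and without replicate 3 1210, 4, 11, 7, 2, 6, 3, 5, 0 and 5. With each library left out and no block, the counts ranged from 44 (without WT replicate 1) to 384 (without Scl-/- replicate 1), 0 to 3, 0 to 3, 0 to 2, 0 to 0, 1 to 4, 0 to 0, 0 to 1, 0 to 0 and 1 to 5. Of the regulators, 0 were called without WT replicate 1 or 3 or Scl-/- replicate 2 or 3, 1 without WT replicate 2 and 3 without Scl-/- replicate 1. Without an intensity trend 1 regulator, Evx1 and not Mixl1 (adjusted p = 0.0584), and 1 epiblast gene were called. With a fold threshold of 1 on the log2 scale 1 regulator, Mixl1, and 2 FLK1+ mesoderm markers were called. A minimum mean of 2 CPM left 0 antagonists called. The cause of these changes was not tested, other than the removal of genes or libraries by the setting itself. The visceral endoderm list gave 0 calls under each alternative. Depth limits Cer1 most, with 6 to 127 reads per library.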

Other observations

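In each of the 5 measured streak regulators, the largest log2 difference between the Scl-/- and the WT library was that of pair 3. It was 0.77 for Evx1, whose other pairs differed by 0.76 and 0.73, so that the order of its pairs is not firm. For Cer1 it was 1.93, and the other pairs differed by 0.42 and 0.20. Among the 4176 tested genes that were higher in each pair, pair 3 had the largest difference in 41.0%, pair 2 in 31.6% and pair 1 in 27.4%. The difference between pairs was not tested, since each pair is a single WT and a single Scl-/- library.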
